A study of Mus musculus with 8 samples.

Results

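A set of 8 genes of the unfolded protein response of the endoplasmic reticulum (ER) was examined in mouse pluripotent cells. They were taken as every array probe whose RefSeq transcript belongs to Hspa5, Herpud1, Xbp1, Dnajb9, Sdf2l1, Pdia4, Hsp90b1 or Creld2, which gave 9 probes for 8 genes, of 22685 features tested, 14390 of them named genes. The arrays, 8 in all and of 1 colour, held total RNA of undifferentiated cells of the C57BL/6J strain: 4 of OSKH induced pluripotent stem cells (iPSCs), 3 of OSK iPSCs, named as the control group, and 1 of the embryonic stem cell (ESC) line B6J-23. The labels do not spell out OSK and OSKH. By usage in the field OSK stands for the reprogramming factors Oct4, Sox2 and Klf4, and the H is taken to be H1foo, the linker histone of the oocyte. No other treatment is given, and it is not stated in the labels whether a group's arrays came from separate clones, lines or cultures, and the p-values speak for the scatter of these samples alone, some or all of which may be technical. The ESC group is 1 array.

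The ER folds membrane and secreted proteins with the help of chaperones, folding enzymes and a disposal route for chains that fail to fold. When unfolded chains build up, the membrane sensors Ire1, Atf6 and Perk switch on. Ire1 splices the Xbp1 message into one for an active transcription factor and Atf6 is cut to release another, and both raise chaperone genes, while Perk slows translation and favours the factor Atf4, whose targets include Ddit3, Trib3 and Chac1. Atf4 is also reached from other kinases that sense amino acid shortage, haem shortage or viral RNA.

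Of the 8 genes, 4 carry in their promoter a sequence known from a branch of the response. These are shown because the array OSKH 1 gave the lowest reading for Hspa5 and Creld2 and the highest for Herpud1. The choice was made after these values were seen. OSKH 1 was also the lowest array for Xbp1 and Pdia4 and the highest for Dnajb9. No such sequence was found in Xbp1, Pdia4 or Dnajb9. Hsp90b1, 1 of the 4, was lowest on OSK 3. The ER stress response element (ERSE) is CCAAT, then 9 bases of any kind, then CCACG. ERSE-II is ATTGG, then 1 base of any kind, then CCACG. The Atf4 element searched was TGATGCAA. All were sought on both strands in 300 bases, 250 before and 50 after the annotated start, in RefSeq sequences of GRCm38.p6, where all 8 genes were matched by symbol. The 250 bases before the start follow, 5′ to 3′ on the strand of the gene, with matches in capitals.
Hspa5 (chr2:34771840-34772089, plus strand): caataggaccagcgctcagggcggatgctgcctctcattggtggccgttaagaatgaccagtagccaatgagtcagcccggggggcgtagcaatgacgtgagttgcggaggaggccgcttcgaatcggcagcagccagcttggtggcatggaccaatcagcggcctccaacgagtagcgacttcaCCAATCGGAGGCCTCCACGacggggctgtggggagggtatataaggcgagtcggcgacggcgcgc
Hsp90b1 (chr10:86705445-86705694, minus strand): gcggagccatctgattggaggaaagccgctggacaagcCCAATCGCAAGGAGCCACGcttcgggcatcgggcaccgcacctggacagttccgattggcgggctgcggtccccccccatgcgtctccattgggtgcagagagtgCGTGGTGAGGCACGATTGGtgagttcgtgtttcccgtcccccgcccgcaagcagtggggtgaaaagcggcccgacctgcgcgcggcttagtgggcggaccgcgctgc
Creld2 (chr15:88819396-88819645, plus strand): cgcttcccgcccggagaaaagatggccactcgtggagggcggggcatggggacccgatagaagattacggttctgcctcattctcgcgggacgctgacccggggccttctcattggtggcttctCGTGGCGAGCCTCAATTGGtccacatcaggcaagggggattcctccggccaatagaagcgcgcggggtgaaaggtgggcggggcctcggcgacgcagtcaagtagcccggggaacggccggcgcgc
Herpud1 (chr8:94386179-94386428, plus strand): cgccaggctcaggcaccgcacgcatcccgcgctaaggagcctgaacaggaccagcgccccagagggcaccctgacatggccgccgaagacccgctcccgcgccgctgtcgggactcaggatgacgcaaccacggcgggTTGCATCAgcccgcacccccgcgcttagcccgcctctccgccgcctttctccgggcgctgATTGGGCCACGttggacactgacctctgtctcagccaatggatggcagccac
The capitals in Hspa5 are 1 ERSE from -65 to -47, counted from the start. Hsp90b1 has an ERSE from -212 to -194 and another, on the opposite strand, from -107 to -89, and Creld2 has 1 on the opposite strand from -126 to -108. Herpud1 has an ERSE-II from -52 to -42 and the Atf4 element on the opposite strand from -112 to -105. ERSE matches lay in 0.119% of 32851 promoter windows, ERSE-II in 0.0365% and the Atf4 element in 0.895%. The UPRE core TGACGTGG, bound by spliced Xbp1, lay in 0.676% of windows and in 0 of the 8. The motifs did not overlap one another in these genes. A match describes letters and does not show that a factor binds there.

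Each level is the log2 of a probe's signal with the 75th percentile of its array subtracted, so a level of 0 means a signal at that percentile. Each difference is one of log2 levels, with its standard error (SE) as limma gave it. All 9 probes were well above background on all 8 arrays. Levels of different probes cannot be ranked against each other, so each gene was compared only with itself. The arrays shared a slide, on which row 1 held the ESC array with 3 of OSKH (numbers 1 to 3) and row 2 held the remaining OSKH array, number 4, with all 3 of OSK. OSKH minus OSK is therefore largely a difference between rows, and the value within row 2, OSKH 4 against the mean of OSK, is given beside it.

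OSKH and OSK iPSCs did not differ in any of the 8 genes by the test. The differences lay between -0.15 for Xbp1 and 0.32 for Herpud1, with 4 genes higher and 4 lower in OSKH. Limma called 0 of the 8 at an adjusted p under 0.05, against 0% of all features. At an unadjusted p under 0.05 it also gave 0 of the 8, against 6.48% of all features, and in 0 of the 8 did the groups fail to overlap, against 7.34%. The median difference over the 8 genes was 0.064, beside -0.014 over all features. The smallest adjusted p of any feature was 0.463. In bulk RNA, fewer cells that express a gene and less of its RNA per cell cannot be told apart.

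Hspa5 encodes BiP, the Hsp70 chaperone of the ER lumen that also binds the sensors. Its level was 6.42 on ESC, 5.93, 6.33, 6.44 and 6.40 on OSKH 1 to 4, and 6.28, 6.25 and 6.34 on OSK 1 to 3. OSKH 1 was the lowest array, and the other 7 lay within 0.20 of each other. The OSKH mean was 6.28 ± 0.23 (SD, n = 4). The OSK mean was 6.29 ± 0.045 (SD, n = 3), and the difference was -0.011 (SE 0.14), with a 95% interval from -0.33 to 0.31 and a limma adjusted p of 0.995. The sign of that difference turned to 0.10 without OSKH 1, to 0.014 without OSK 3 and to 0.11 within row 2.

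Hsp90b1 encodes Grp94, the Hsp90 of the ER. It was at 6.03 on ESC, 5.97, 6.27, 6.33 and 6.25 on OSKH 1 to 4, and 6.10, 5.99 and 5.97 on OSK 1 to 3. OSKH 2, 3 and 4 were above every OSK array, and OSKH 1 was level with OSK 3. The difference of 0.19 (SE 0.11) had a 95% interval from -0.068 to 0.44 and a limma adjusted p of 0.840. It was 0.27 without OSKH 1, and 0.23 within row 2. Its limma adjusted p ran from 0.382, without OSKH 1, to 0.9999 over the alternatives tried.

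**Figure D1:**
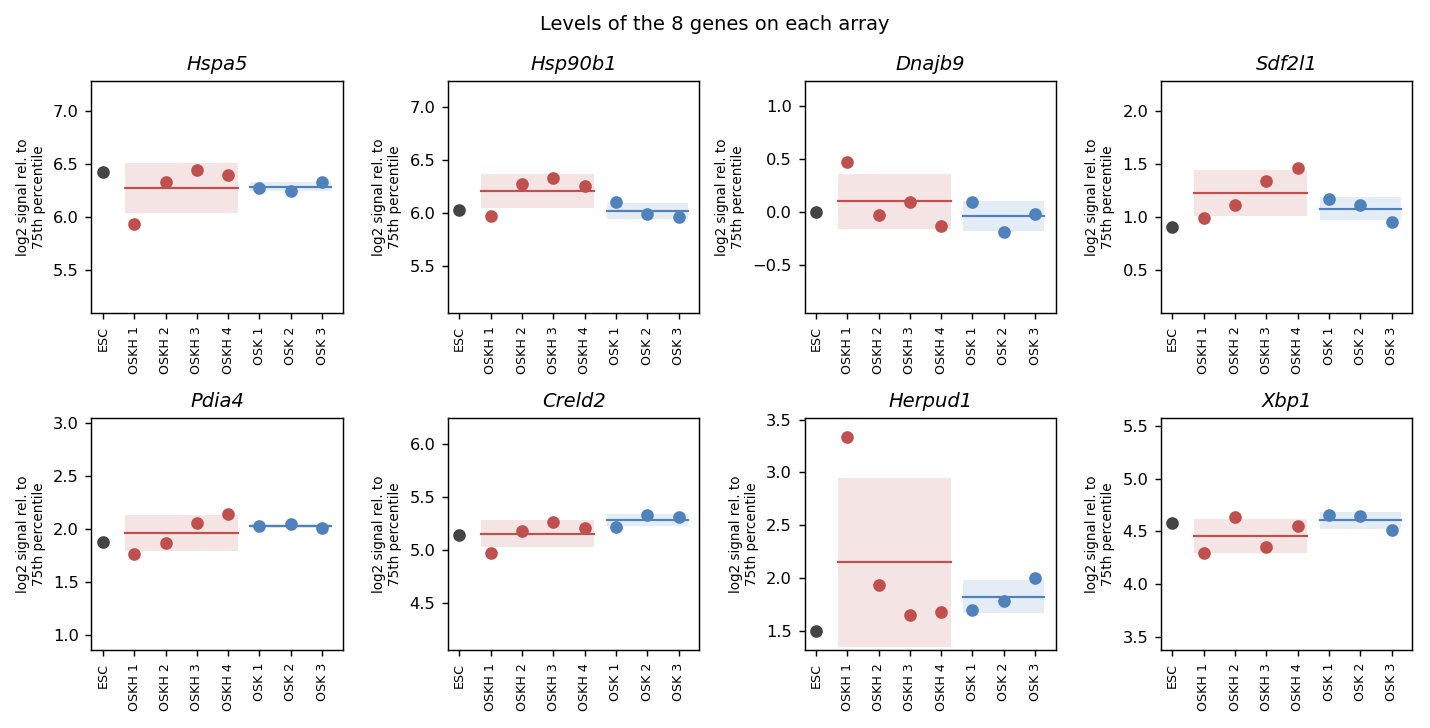
Level of each of the 8 genes on each of the 8 arrays, as log2 signal minus the array's 75th percentile; each panel spans 2.2 log2 units. Points are arrays, lines are means of the 4 OSKH and 3 OSK arrays and bands are 1 SD; OSKH 1 is the lowest array for Hspa5, Pdia4, Creld2 and Xbp1 and the highest for Herpud1 and Dnajb9.

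The partners of BiP and the folding enzymes showed small differences as well. Dnajb9 encodes ERdj4, a J-domain protein that works with BiP and turns Ire1 down. It was at -0.0032 on ESC, 0.47, -0.034, 0.090 and -0.13 on OSKH 1 to 4, and 0.090, -0.19 and -0.018 on OSK 1 to 3. OSKH 1 was the highest array. A second, dimmer probe of the gene read -3.16 on OSKH 1 and between -3.21 and -2.75 on the other 7, so the high reading of OSKH 1 came from 1 of the 2 probes. The difference was 0.14 (SE 0.16) with the brighter probe, -0.012 with the mean of both, and -0.092 within row 2. It was 0.015 without OSKH 1, 0.062 without OSK 2 and 0.22 without OSKH 4.

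Sdf2l1 encodes a luminal protein that works with J-domain partners of BiP. Its level was 0.91 on ESC, 0.99, 1.11, 1.34 and 1.47 on OSKH 1 to 4, and 1.17, 1.11 and 0.96 on OSK 1 to 3. OSKH 3 and OSKH 4 were above all other arrays. The difference was 0.15 (SE 0.13) over all arrays and 0.39 within row 2, a value that OSKH 4 alone gives. It was 0.069 without OSKH 4, 0.088 without OSK 3 and 0.23 without OSKH 1.

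Pdia4 encodes ERp72, a protein disulfide isomerase. It was at 1.88 on ESC, 1.77, 1.87, 2.06 and 2.14 on OSKH 1 to 4, and 2.03, 2.04 and 2.01 on OSK 1 to 3. The 3 OSK arrays lay within the range of OSKH. The difference of -0.071 (SE 0.11) turned to 0.11 within row 2, and was -0.0073 without OSKH 1, -0.041 without OSKH 2 and -0.13 without OSKH 4.

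Creld2 encodes a secreted and ER-resident protein with isomerase-like activity that responds to ER stress. It was at 5.14 on ESC, 4.97, 5.17, 5.26 and 5.20 on OSKH 1 to 4, and 5.22, 5.33 and 5.31 on OSK 1 to 3. OSK lay above OSKH 1, 2 and 4 but overlapped OSKH 3. Creld2 is read by 10 spots per array, whose SD was 0.031 to 0.045, against 0.12 between the 7 iPSC arrays. The difference was -0.13 (SE 0.094) over all arrays, -0.083 within row 2 and -0.074 without OSKH 1.

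Herpud1 and Xbp1 serve disposal and control. Herpud1 encodes a membrane protein that helps assemble the ER degradation complex. It was at 1.503 on ESC, 3.33, 1.94, 1.65 and 1.68 on OSKH 1 to 4, and 1.70, 1.79 and 2.00 on OSK 1 to 3. OSKH 1 was far above the other 7 arrays, which lay within 0.49 of each other. The difference of 0.32 (SE 0.41) had a 95% interval from -0.66 to 1.31 and a limma adjusted p of 0.937, and it was -0.070 without OSKH 1, 0.49 without OSKH 3 and -0.15 within row 2. The range of Herpud1 over the 8 arrays, 1.83, was exceeded by 7.53% of features, while the ranges of the other 7 genes, 0.36 to 0.66, were exceeded by 45.0% to 77.1%.

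Xbp1, the factor of the Ire1 branch, was at 4.58 on ESC, 4.29, 4.63, 4.35 and 4.55 on OSKH 1 to 4, and 4.66, 4.65 and 4.51 on OSK 1 to 3. OSKH 1 and OSKH 3 were lower than the rest. The difference was -0.15 (SE 0.11) over all arrays, -0.051 within row 2 and -0.093 without OSKH 1. The probe does not tell the spliced message from the unspliced one as far as the files say, so splicing was not measured here.

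The single ESC array lay close to the iPSCs in most of the 8 genes. OSKH minus ESC ran from -0.15 for Hspa5 to 0.65 for Herpud1 (SE 0.61), with 6 genes higher, and OSK minus ESC ran from -0.14 for Hspa5 to 0.32 for Herpud1 (SE 0.63), with 5 higher. ESC was the lowest array for Herpud1 and Sdf2l1. The test called 0 of the 8 at an adjusted p under 0.05 in either comparison, against 0% and 0% of features, and 0 of the 8 at an unadjusted p under 0.05, against 4.36% for OSKH and 6.02% for OSK. Medians over the 8 genes were 0.091 and 0.085, beside -0.054 and -0.046 over all features. Both comparisons share the ESC array and take its spread to be that of the iPSC arrays. Some directions rested on 1 array: OSKH minus ESC turned to -0.022 for Dnajb9 without OSKH 1, and for Creld2 to -0.025 without OSKH 3 and -0.0058 without OSKH 4. OSK minus ESC turned to -0.0024 for Xbp1 without OSK 1, to 0.039 for Dnajb9 without OSK 2, and for Hsp90b1 to 0.0089 without OSK 2 and 0.022 without OSK 3. Within row 1, OSKH 1 to 3 minus ESC was -0.19 for Hspa5, 0.80 for Herpud1 and 0.24 for Sdf2l1. With slide row as a block, OSK minus ESC was -0.30 (SE 0.30) for Hspa5 and 0.95 (SE 0.88) for Herpud1. OSK and ESC shared no row, so these values pass through the OSKH arrays, OSKH 1 among them. Without OSKH 1, OSKH minus ESC of Herpud1 was 0.25, beside 0.65 over all arrays.

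**Figure D2:**
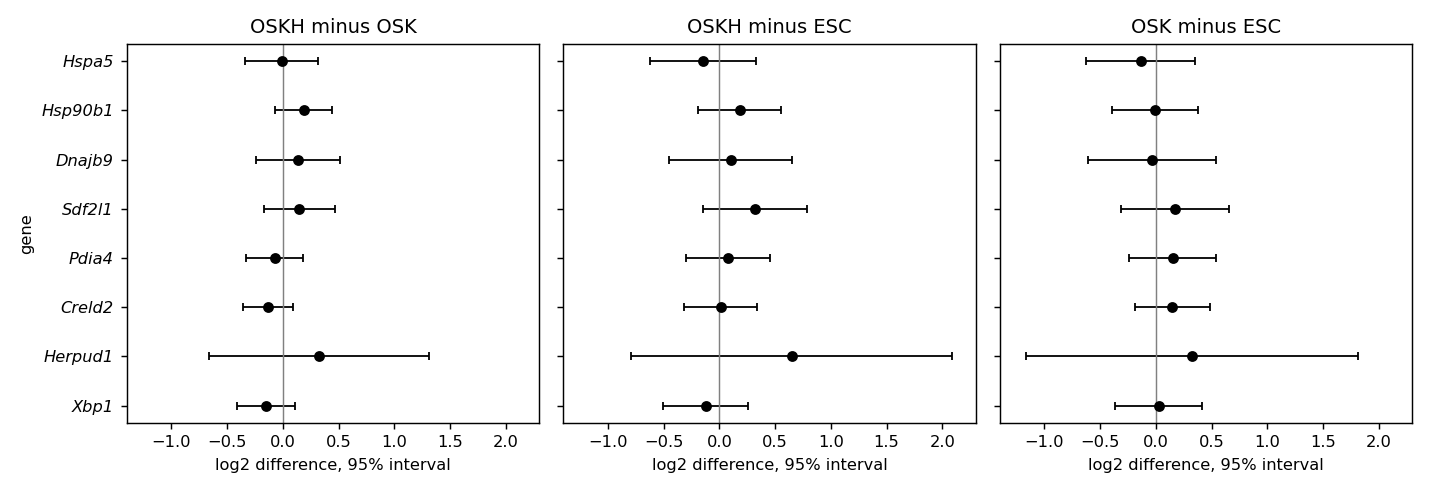
Log2 differences of the 8 genes in OSKH minus OSK, OSKH minus ESC and OSK minus ESC, with 95% intervals from limma; each row is a gene. All 24 intervals include 0, and those of Herpud1 are the widest of the 8 in each panel.

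The array most often at an end of the range in the 8 genes was OSKH 1. It was the lowest of the 8 arrays for 4 genes, Hspa5, Xbp1, Pdia4 and Creld2, and the highest for 2, Herpud1 and Dnajb9. Over all features OSKH 1 was the lowest array for 23.1% and the highest for 20.4%, more often than any other array in both cases, so 2 of 8 highest is near the background. One OSKH array stood apart from the other 3 by the gap over the range, at 95% confidence, in 7.11% of features, and among the 8 genes this held for Herpud1. In same-numbered pairs, which also shared a slide column, Herpud1 differed by 1.64 between OSKH 1 and OSK 1, by 0.15 between OSKH 2 and OSK 2 and by -0.34 between OSKH 3 and OSK 3. Hspa5 differed by -0.35, 0.087 and 0.11 in the same pairs. No test was made of OSKH 1 against the rest, since the array was singled out by its values.

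Genes of the Perk and Atf4 branch gave OSKH 1 as the highest array in 11 of the 15 listed, against the 20.4% of all features. Ddit3, the factor CHOP, was at 1.29 on OSKH 1 and between -1.87 and -1.33 on the other 7. Chac1, which breaks down glutathione, was at 6.02 and between 2.70 and 3.82. Atf3, a stress-induced factor, was at 0.51 and between -2.57 and -1.49, and Trib3, a pseudokinase that is a Chop and Atf4 target, at 6.03 and between 3.93 and 4.50. In each of these the gap from OSKH 1 to the next array was wider than the whole range of the other 7. Nupr1, a stress-induced chromatin protein, lay at 3.91 and between 1.92 and 3.04, and Sesn2, a nutrient sensor, at 4.26 and between 3.31 and 3.65. The 4 for which OSKH 1 was not highest were Atf5, Asns, Eif2s1 and Bcl2l11. Asns, asparagine synthetase, which is also an Atf4 target, was at 6.05 on OSKH 1 and between 5.68 and 6.17 on the others. Atf4 itself was at 8.19 on OSKH 1 and between 7.59 and 8.08 on the others.

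Further folding genes, of the ER and of the cytosol, were more often lowest than highest on OSKH 1. It was the lowest array for 7 of 16 further ER chaperones and cofactors, 7 of 14 disulfide enzymes and 6 of 18 degradation genes, against 23.1% of all features, and the highest for 1, 0 and 1 of them. Outside the ER, OSKH 1 was also the lowest for 6 of 13 cytosolic heat shock genes, and the highest for 2. Manf, a secreted ER stress protein, was at 3.33 there and between 3.57 and 3.96 on the others. Txndc5, a disulfide isomerase, was at 0.94 and between 1.31 and 1.71, and Edem1, which hands misfolded glycoproteins to disposal, at 0.72 and between 0.88 and 1.14. As medians of deviations from each gene's mean, OSKH 1 was at -0.11 for ER chaperones, -0.15 for disulfide enzymes and -0.082 for degradation genes. It was at -0.088 for cytosolic heat shock genes and 0.69 for the Perk branch, beside -0.013 over all features. Sensors and factors were at 0.033 there, mitochondrial chaperones at 0.025 and genes of protein entry into the ER at -0.046. Of 14 sensors and factors OSKH 1 was the highest for 3, among them Eif2ak3 (Perk) and Atf6, and the lowest for 4. Of 21 genes of protein entry into the ER it was the lowest for 5, near the 23.1% of all features, and the highest for 2. Of 10 mitochondrial chaperones it was the lowest for 2 and the highest for 3. The chaperone and degradation lists also had low medians on OSK 1, at -0.057 and -0.11. OSKH 1 was the highest array in 8 of 12 pluripotency markers, against 20.4% of all features. Among them were Klf4 (3.69, between 1.69 and 3.52 on the others), Esrrb and Klf2. The list did not move as one. Lin28a, at 5.715, and Tdgf1, at 5.34, were lower on OSKH 1 than on most arrays. Pou5f1 and Nanog were not highest there either. The sum of the 12 markers' linear signals, each divided by the 75th percentile of the array, to which Dppa5a adds the most, was 825 on OSKH 1, 543 to 648 on OSKH 2 to 4, 608 to 687 on OSK and 735 on ESC. Its part in the result was not tested.

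**Figure D3:**
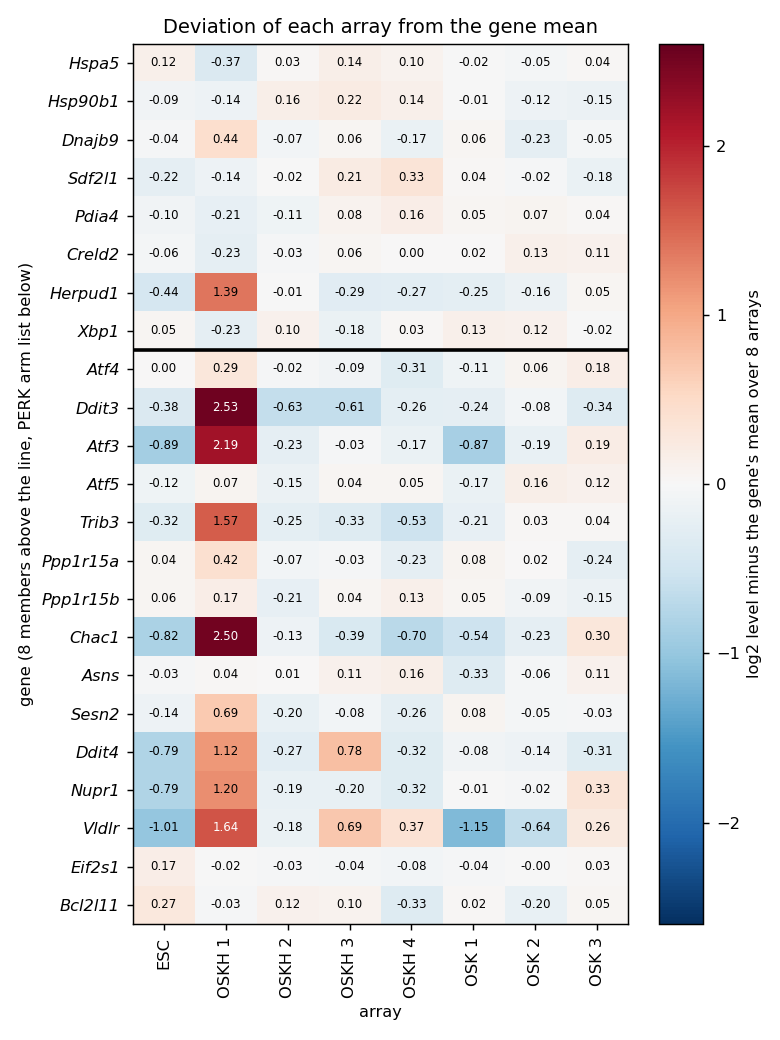
Deviation of each array from the gene's mean over the 8 arrays, in log2 units, for the 8 genes (above the line) and the 15 genes of the Perk branch (below it); red is higher and blue lower. The OSKH 1 column is red for Herpud1, Ddit3, Atf3, Trib3, Chac1, Nupr1, Ddit4 and Vldlr and pale blue for Hspa5, Xbp1, Creld2 and Pdia4.

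**Figure D4:**
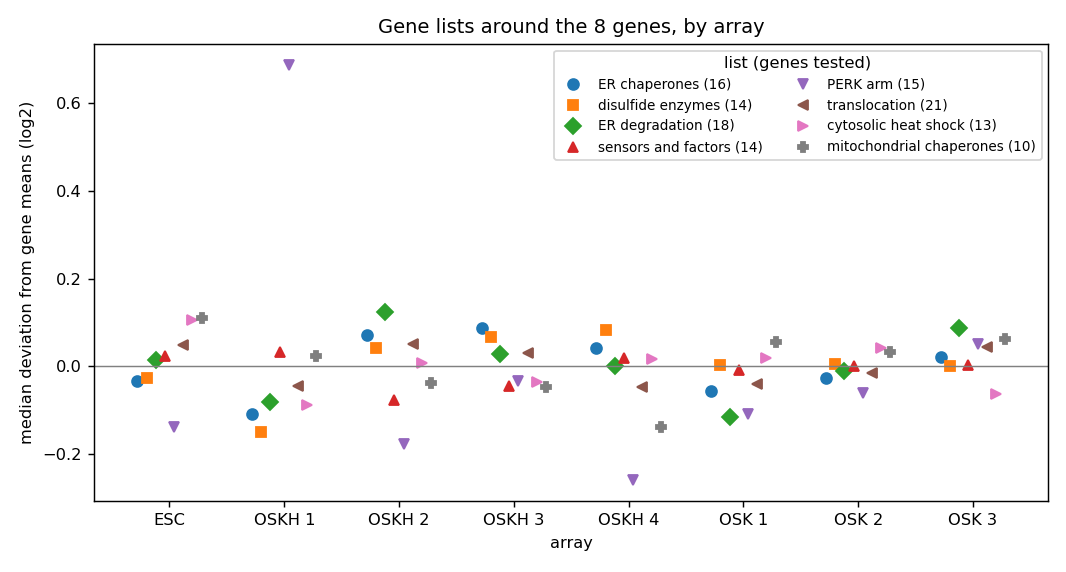
Median deviation from gene means, in log2 units, of 8 lists of related genes on each array, with the number of genes tested in the key. On OSKH 1 the Perk branch lies at 0.69 and the disulfide enzymes at -0.15, and on the other 7 arrays all lists lie between -0.26 and 0.12.

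Between OSKH and OSK the lists around the 8 genes held 0 calls. ER chaperones had 12 of 16 genes higher in OSKH and a median of 0.048, disulfide enzymes 7 of 14 and -0.0082, degradation genes 10 of 18 and 0.011, and sensors with their factors 8 of 14 and 0.021. The Perk branch had 12 of 15 higher and a median of 0.098, which was -0.053 without OSKH 1 and -0.14 with slide row as a block. Of the OSKH arrays, that last value rests on OSKH 4 alone. Vldlr, a lipoprotein receptor induced through Atf4, differed most, by 1.14 (SE 0.49) with a limma adjusted p of 0.767. It was at 1.497, -0.32, 0.55 and 0.23 on OSKH 1 to 4 and at -1.29, -0.78 and 0.11 on OSK 1 to 3, so the groups overlapped. At the other end of that list Atf4 differed by -0.079, which was 0.013 without OSKH 4, -0.011 without OSK 3, -0.16 without OSK 1 and -0.19 without OSKH 1.

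The genes at the ends of the other lists were as follows. Among chaperones Fkbp11, a prolyl isomerase, differed by 0.19 and Hyou1, the large Hsp70 of the ER, by -0.24, and both changed sign within row 2, to -0.12 and 0.017. With single arrays left out they ran from 0.041 (without OSKH 2) to 0.33 (without OSK 2) and from -0.38 (without OSK 3) to -0.14 (without OSK 2). Among disulfide enzymes Txndc12 differed by 0.24 and Ero1b, an oxidase, by -0.12, which was 0.011 without OSK 2, -0.071 without OSKH 1 and -0.21 without OSK 3. Sel1l and Syvn1, the scaffold and the ubiquitin ligase of 1 degradation complex, differed by 0.19 and -0.26, the latter -0.078 without OSKH 3, which lay at 3.69 where the other 7 arrays lay between 4.22 and 4.58. Of the sensors and factors Creb3l2 differed by 0.33, which was 0.11 without OSK 3 and 0.50 without OSK 2. Nfya, a subunit of the factor that binds CCAAT, differed by -0.25, which was -0.17 without OSKH 1. For protein entry into the ER Spcs1, of the signal peptidase, differed by 0.13 and Ssr2, of the translocon-associated complex, by -0.23. The limma adjusted p of these 10 genes lay between 0.752 and 0.936.

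Chaperones outside the ER were not called either. Of 13 cytosolic heat shock genes tested 5 were higher in OSKH, with a median of -0.034, and of 10 mitochondrial chaperones and proteases 2 were, with a median of -0.079. Bag3, a partner of Hsp70, differed by 0.30, which was 0.50 without OSKH 1. Hspb1, a small heat shock protein, differed by -0.29, which was -0.54 without OSKH 1, -0.17 without OSKH 4, -0.12 without OSK 1 and -0.44 without OSK 3. Clpp, the mitochondrial protease, differed by -0.46 (SE 0.21, limma adjusted p 0.771), and Clpx, its unfoldase partner, by 0.013, which was -0.058 without OSKH 1, -0.013 without OSK 2 and -0.013 without OSK 3.

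The fibroblast markers tested, all but Thy1, were highest on OSKH 4 or ESC, and the endoderm markers did not move as one. The same sum of linear signals over 8 fibroblast genes tested, of 11 listed, was 22.7 on ESC, 8.50 to 24.4 on OSKH and 5.53 to 10.5 on OSK. It was highest on OSKH 4, where Sdf2l1 and Pdia4 were also highest. On ESC, next highest in that sum, Sdf2l1 was the lowest of all arrays, at 0.91. Pdia4, at 1.88 on ESC, was below every OSK array. Col1a2 was at 2.88 on OSKH 4 and 2.53 on ESC and at most 0.50 elsewhere. Thy1 was highest on OSKH 3, at 3.44, and lay at 2.50 on OSKH 4, 2.69 on ESC and 2.51 on OSK 3. Of 14 endoderm genes 8 were tested, with a sum of 30.6 on ESC, 24.6 to 50.6 on OSKH and 27.2 to 28.1 on OSK. OSKH 1 was at 29.0. Foxa2 was at 4.03 on OSKH 4 and Lamb1 and Foxa1 were also highest there. Lama1, at 3.43, and Sox7, at -1.69, were highest on OSKH 1, Amn and Dab2 on OSKH 3, and Cubn was lowest on OSKH 4. Of those not tested, Afp and Ttr were well above background on 0 arrays, Sox17 on 1, and Gata4, Gata6 and Pdgfra on 2 each. The part of either list in the values of the 8 genes was not tested. Pou5f1, between 6.09 and 6.41, and Dppa5a and Lin28a were well above background on all 8 arrays.

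On OSKH 1 the 8 genes split, with Herpud1 and Dnajb9 above their own mean over the arrays and the other 6 below it. The median deviation there was -0.17, against -0.074 to 0.071 on the other 7 arrays, while the mean deviation was 0.063, carried by Herpud1 at 1.39. On ESC the mean was -0.097. The 6 named genes nearest to that mean, by root mean square difference over 8 arrays, were Dyrk1a, Ybx1, Snd1, Rab10, Cideb and Dync1i2, at 0.026 to 0.035, for a profile whose own root mean square was 0.047. Single genes, added after their values were seen, gave other neighbours. Trib3 lay at 0.163 from Herpud1, second to Ciart at 0.13, for a profile of 0.54. Vmn1r212 came next at 0.164, then Ttc29, Frg2f1 and Zkscan14 at 0.19 each. Nearest to Hspa5 was Exo5 at 0.031, followed by Patj, Tmem43, Ppp2r5d and Rnf26 at 0.048 to 0.053, for a profile of 0.15. Dad1, a subunit of the oligosaccharyltransferase of the ER, came at rank 6, at 0.053.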

How the data were processed

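Total RNA of 8 samples was labelled with Cy3 and hybridised to 1-colour Agilent arrays, per the labels. Spots were quantified with Agilent Feature Extraction 11.5.1.1, per the submitters' processing notes, and the deposited intensity is a background-subtracted processed signal, per the file headers. The flags deposited beside it are scored 0 or 1. The deposited value table, on a log2 scale, differed from log2 of that signal by a fixed amount on each array (tolerance 0.01, in 99.7% or more of probes). Its column medians were -3.71 to -3.60, which settles scale and direction; what software made it was not given in the sources. Probes are annotated against mm9, per the file headers.

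Control spots and outlier-flagged spots were left out, the rest averaged per probe, and the 75th percentile of each array subtracted after taking log2. Accessions were matched without versions to symbols of GRCm38.p6, naming 27650 of 55667 probes. Testing required a probe to be well above background on 3 or more of the 8 arrays, with the brightest probe per gene. The share of probes well above background was 51.4% to 59.0% by array, and precision is limited by the number of arrays. Groups came from the sample titles. The 3 groups were fitted in limma 3.58.1 (R 4.3.3; lmFit, eBayes) and p-values adjusted by Benjamini and Hochberg's method across the 22685 features, at a threshold of 0.05, on 5 residual degrees of freedom. Tested on simulated data of the OSKH and OSK design (22685 features), 61 of 100 genes changed by 1 log2 unit were recovered. Of 100 changed by 2 log2 units, 88 were recovered, with 6 false calls among 155. These counts describe the simulated data alone, and recovery on the real arrays was not measured. On the real arrays group and slide row largely coincided, and OSKH 1 was lowest or highest more often than any other array.

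Same-numbered OSKH and OSK samples, 1 to 3, deviated together, with correlations of 0.489, 0.206 and 0.365 between their deviations from the group means. The pairing comes from the data and from the shared slide columns. The members and gene lists were chosen with earlier results of these data known. Beyond the 8 genes, each list gave its genes with the highest and the lowest difference in OSKH minus OSK, and the 6 genes nearest to the mean profile and up to 3 markers per list were named, while others (such as the named genes of the Perk branch, Klf4, Esrrb, Klf2, Foxa2, Afp, Ttr and the genes lowest on OSKH 1) were chosen after their values were seen. Alternatives were normexp, quantile and array-median scaling, the deposited table, the mean of all probes, other filters, iPSCs alone, slide row as a block or within rows, the replicate block and each replicate left out. Normexp used the median spot signal, as the files used here hold no mean signal.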

Additional observations from a re-analysis of the deposited data

Results flagged for a closer look

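Genes examined numbered 77: the 8 genes, those named from the lists, the Perk branch, the markers tested and genes of like profile. Of these, 12 had 1 OSKH array apart from the other 3 by the gap to the nearest array divided by the range of the 4. Chance flags about 1 in 20 groups, and 7.11% of all features were apart in this way. The 77 cannot be set against these shares, since some were picked for their values. Among these were Manf, Txndc5 and Edem1, and genes with a profile like that of Herpud1 or Hspa5. Herpud1 had a ratio of 0.833, with OSKH 1 at 3.33 and the next array at 1.94. In the Perk branch OSKH 1 was apart and high in Ddit3 (0.884), Atf3 (0.920), Trib3 (0.865) and Nupr1 (0.918), while OSKH 2 was apart and low in Atf5 (0.886). Hspb1, a small heat shock protein of the cytosol, had a ratio of 0.851, with OSKH 1 at 7.98 and the other 3 between 6.87 and 7.03. Ciart (0.920) and Dad1 (0.902), in which OSKH 1 was also apart, had been picked for a profile like that of Herpud1 and of Hspa5. Among the fibroblast markers OSKH 4 was apart and high in Col1a1 (0.923) and Col3a1 (0.881), and OSKH 3 in Thy1 (0.965).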

How the results depend on the processing

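No alternative called any of the 8 genes at an adjusted p under 0.05. Their probes were well above background on all 8 arrays, which does not show how far background shaped their values. With normexp, OSKH minus OSK of Hsp90b1 was 0.13, beside 0.19 in the main fit. In OSKH minus OSK, 47 features were called with slide row as a block and 30 within slide row 2. Without a filter on dim probes 11 were called in OSKH minus ESC and 9 in OSK minus ESC, and slide row as a block gave 38 in OSK minus ESC, where the median over the 8 genes moved to -0.078. The replicate block called 0 features, gave a median over the 8 genes of 0.0091 and changed no call, though Atf4 turned to 0.013. Leaving out single arrays called 0 features in each comparison, with medians over the 8 genes from 0.0039 to 0.090 in OSKH minus OSK, 0.075 to 0.13 in OSKH minus ESC and 0.062 to 0.10 in OSK minus ESC.

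With slide row as a block, and within row 2, OSKH minus OSK reversed for Hspa5 (0.11), Herpud1 (-0.15), Dnajb9 (-0.092), Pdia4 (0.11), Fkbp11 (-0.12), Hyou1 (0.017) and Clpx (-0.11). With that block OSK minus ESC reversed for Xbp1 (-0.10), Dnajb9 (0.27), Sdf2l1 (-0.15) and Pdia4 (-0.090), and OSKH minus ESC for Creld2 (-0.0058, also within row 1). The mean of all probes reversed Dnajb9 to -0.012 in OSKH minus OSK and 0.12 in OSK minus ESC. OSK minus ESC of Hsp90b1 turned to 0.032 with normexp, 0.12 with quantile scaling and 0.0046 with the array median. For these the cause was not tested. Leaving out 1 array reversed OSKH minus OSK of Hspa5 (-0.066 to 0.10), Herpud1 (-0.070 to 0.49), Ero1b (-0.21 to 0.011), Atf4 (-0.19 to 0.013) and Clpx (-0.058 to 0.065). It reversed OSKH minus ESC of Dnajb9 (-0.022 to 0.18) and Creld2 (-0.025 to 0.071), and OSK minus ESC of Xbp1 (-0.0024 to 0.070), Dnajb9 (-0.10 to 0.039) and Hsp90b1 (-0.047 to 0.022). Of the other values for single genes, 374 under other settings and 265 with 1 array left out kept their direction and their side of the threshold.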
